A study of Mus musculus with 17 samples.

Results

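Pld6 knockout (KO) and wild-type (WT) leptotene/zygotene (L/Z) spermatocytes were compared across all genes that the authors' table lists with an OK status. The 4 libraries concerned, 2 WT and 2 Pld6 KO, were chosen by their genotype and cell labels from the 17 libraries of the series. The series measured polyA(+) RNA of mouse L/Z spermatocytes and whole newborn testes of WT mice and of mice lacking Pld6, Dnmt3l or both. All 4 libraries came from mice on a C57BL6/J background, aged 3 to 4 weeks, whose L/Z cells were purified by fluorescence-activated cell sorting (FACS) with a DNA dye, and each was read as single 50-bp reads and labelled as a biological replicate. The Pld6 KO is a constitutive mutation, so every cell of the animal lacked the gene, and its germ cells die at the late zygotene stage, whereas WT testes of this age also held later germ cells. Values of 2 Dnmt3l KO libraries of the same cells and age, and of whole newborn (P0) testes from 2 WT and 4 Pld6 KO samples, are given beside those of the same genes.

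PLD6, also called MitoPLD, is a phospholipase D family protein of the mitochondrial outer membrane that is needed to make the primary PIWI-interacting RNAs (piRNAs) of male germ cells. In fetal prospermatogonia, piRNAs lead PIWI proteins to retrotransposon RNAs, which are cut, and to retrotransposon promoters, which become methylated with the help of DNMT3L. L/Z spermatocytes are germ cells at the start of meiotic prophase, when double-strand breaks form and homologous chromosomes begin to pair.

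The L/Z libraries held 11532722 (WT 1), 11416082 (WT 2), 6997379 (Pld6 KO 1) and 12295893 (Pld6 KO 2) fragments assigned to genes. Rn45s, the 45S ribosomal RNA precursor, took 8.27% of fragments in WT 1 and 8.06% in Pld6 KO 1, but 0.3005% in WT 2 and 0.139% in Pld6 KO 2, so that 1 library of each genotype was rich in it. Lars2 and Mir6236 followed the same split, with 315591 and 196640 counts of Lars2 in WT 1 and Pld6 KO 1 against 5165 and 2185 in WT 2 and Pld6 KO 2. The cell identity of the labels was checked with 12 genes of meiotic prophase, among them Sycp1, Sycp3, Dmc1 and Stag3, all of which were detected in the 4 libraries. Their summed level, in CPM (counts divided by the scaled library size, the edgeR unit), was 2893 in WT 1, 4866 in WT 2, 3702 in Pld6 KO 1 and 5371 in Pld6 KO 2. The 2 libraries rich in Rn45s were thus the lower ones in each genotype, and values within the pairs of like libraries are given too. The Dnmt3l KO libraries summed to 9564 and 8797 CPM, above all 4.

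The targeted gene served as a check of the genotypes. Pld6 lies on chromosome 11 from 59783893 to 59787657 (GRCm38) and codes for protein. WT libraries counted 344 and 352 fragments of it, and both Pld6 KO libraries counted 0. From a WT level of 29.5 ± 0.558 CPM (SD, n = 2) this is a fall of at least 193-fold, taking 3 counts over both libraries as the limit that a count of 0 allows (FDR 0.000257, edgeR). Dnmt3l, the methylation cofactor removed in the other mutant, counted 19 and 11 in WT against 6 and 10 in Pld6 KO, a log2 fold change of -0.62 ± 0.73 (SE) that did not pass the test (FDR 0.817, edgeR). No L/Z library went against its label.

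Loss of Pld6 was followed by higher levels of a small set of genes, most of which WT spermatocytes barely transcribed. Of 14662 genes tested, 33 had an adjusted p (FDR) below 0.05 together with a change of more than 2-fold, which is 0.225% of genes tested, with 27 higher (0.184%) and 6 lower (0.0409%, Pld6 included). Among the 27 were plasma proteins of the liver (Gc, Afm), a pancreatic secreted protein (Reg2), the giant membrane proteins Pkhd1 and Pkhd1l1, the axon guidance receptors Robo2 and Epha5, and genes of immune cells (Il23r, Nckap1l, Alox5). They also held genes that WT L/Z cells already used, such as Ccnb3, Sfi1, Fbxo47, Stxbp5l and Aff4. The Pld6 KO values of each of the 27 genes lay above both WT values, which is a description, since the genes were chosen on these libraries. A looser measure is to be higher in Pld6 KO within both pairs of like libraries. It held for 5187 of all 14662 genes tested and for all 27. The share of all genes with both Pld6 KO values above both WT values was not counted. These 33 calls rest on a spread estimated over all 6 L/Z libraries, and only Pld6 was called when no Dnmt3l KO library entered the fit. Leaving out WT 2 or Dnmt3l KO 1 left 7 genes called, and leaving out Dnmt3l KO 2 left 14. At an unadjusted p under 0.05, 1345 genes passed (9.17%).

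**Figure D1:**
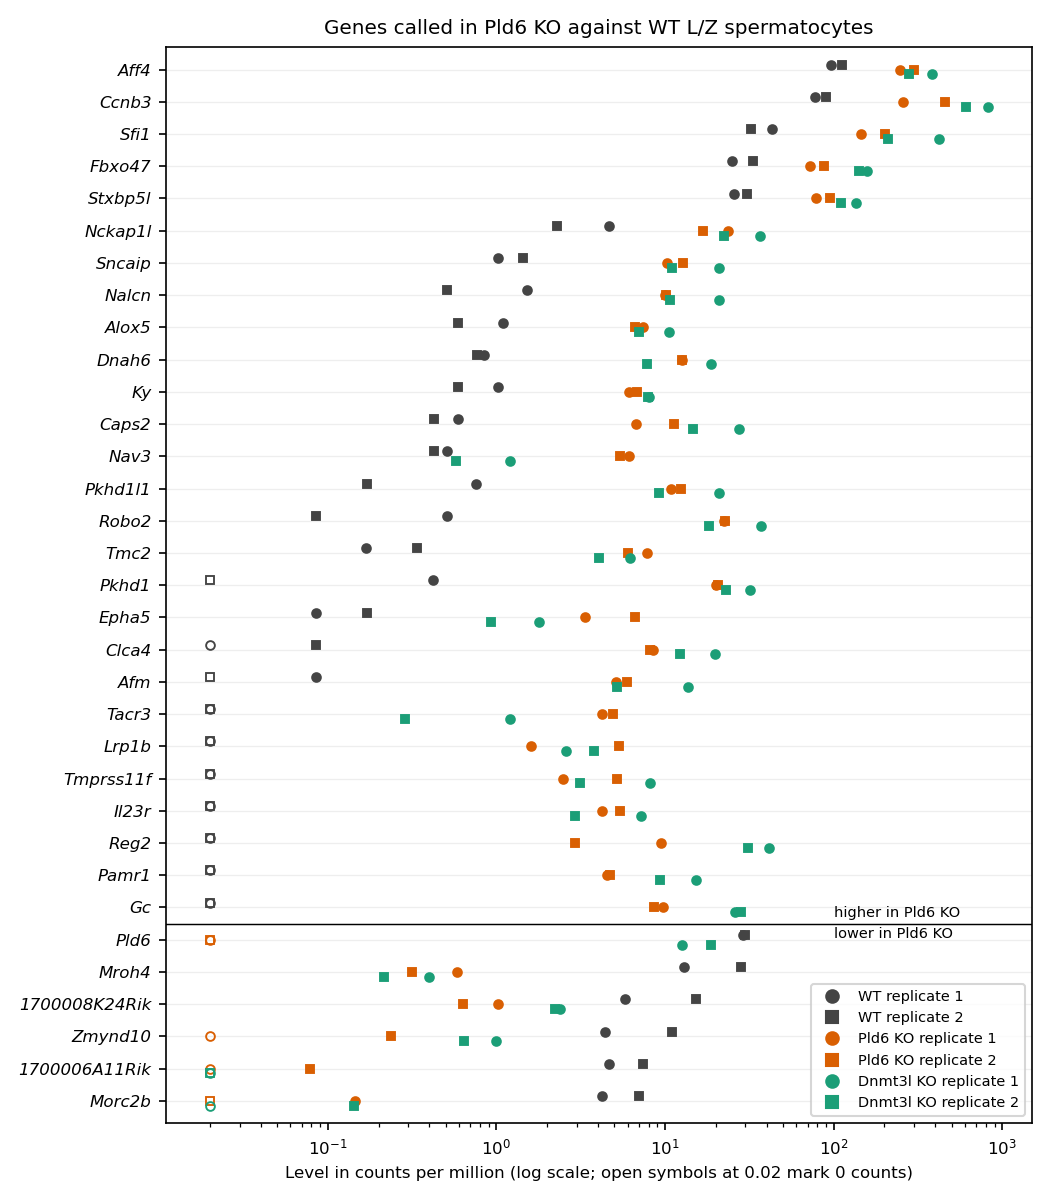
Level in CPM (log scale) of the 33 called genes in each of the 6 L/Z libraries, ordered by WT level within genes higher and lower in Pld6 KO, with open symbols at 0.02 for 0 counts. Both Pld6 KO symbols lie to the right of both WT symbols for 27 genes and to the left for 6, and the WT symbols of 7 genes are at 0. The genes were chosen on these libraries.

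Annotated promoter sequences from both ends of this range are shown because CG dinucleotides are the sites of DNA methylation. Which start sites were used in these libraries was not analysed. The 200 bases before the annotated start site (RefSeq, GRCm38.p6, read in the direction of the gene) are printed for 3 genes near 0 in WT and for Ccnb3, with CG in capitals. The windows are chr5:89457899-89458098 on the minus strand (Gc), chr5:90518749-90518948 on the plus strand (Afm), chr6:78404955-78405154 on the plus strand (Reg2) and chrX:7041620-7041819 on the minus strand (Ccnb3).
Gc: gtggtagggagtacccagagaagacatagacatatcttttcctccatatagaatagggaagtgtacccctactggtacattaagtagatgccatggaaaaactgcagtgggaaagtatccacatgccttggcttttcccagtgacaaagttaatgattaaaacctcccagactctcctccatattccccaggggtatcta
Afm: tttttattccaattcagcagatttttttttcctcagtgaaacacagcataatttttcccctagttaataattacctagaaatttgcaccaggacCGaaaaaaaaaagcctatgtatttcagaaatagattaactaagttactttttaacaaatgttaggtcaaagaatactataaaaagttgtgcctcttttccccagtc
Reg2: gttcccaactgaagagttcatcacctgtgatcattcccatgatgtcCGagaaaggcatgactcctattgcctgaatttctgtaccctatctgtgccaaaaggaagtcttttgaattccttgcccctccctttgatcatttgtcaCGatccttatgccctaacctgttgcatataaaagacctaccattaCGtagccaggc
Ccnb3: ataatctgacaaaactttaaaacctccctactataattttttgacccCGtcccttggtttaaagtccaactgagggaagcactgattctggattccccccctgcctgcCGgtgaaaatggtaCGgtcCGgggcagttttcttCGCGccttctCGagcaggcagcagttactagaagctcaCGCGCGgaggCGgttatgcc

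The window of Gc held 0 CG, that of Afm 1, that of Reg2 3 and that of Ccnb3 11. The letters TATAAA began 30 bases before the start in Afm and Reg2 and were not found, on either strand, in the windows of Gc and Ccnb3. Such windows were at hand for 17 of the 27 higher genes. Of these, 7 held 3 or fewer CG, which is 41.2%, against 11.3% of 11600 tested genes and 43% of all 27025 windows. TATAAA on either strand was found in 4 of the 17 (23.5%), in 4.84% of the tested genes and in 10.6% of all windows. In the wider window from 250 bases before to 50 after the start, the median number of CG was 7 in the 17 genes, 20 over all tested genes, and 7 in tested genes with a WT level of at most 1 CPM. The 13 higher genes with a WT level of at most 1 CPM held 0 to 31 CG there (median 5), with 30 in Epha5 and 31 in Ky. The 4 above that level held 3 to 44 (median 18), with 3 in Nalcn and 18 in Ccnb3. These are descriptions of genes that were chosen by their change, and no test was made of them. The study lists Gc, Afm and Reg2 among genes that rose with an activated retrotransposon nearby. For Afm it proposes that a LINE1 retrotransposon copy within an intron likely drove the exons after it. The annotated windows may thus not hold the starts in use.

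Of the genes called higher, 7 had 0 counts in both WT libraries. Gc, the vitamin D-binding protein of plasma, counted 0 and 0 in WT against 67 and 109 in Pld6 KO (at least 70.7-fold higher, FDR 0.000644, edgeR). Its Dnmt3l KO counts were 130 and 397. Reg2, a secreted protein of the exocrine pancreas, had 65 and 37 counts in Pld6 KO (at least 41.0-fold higher, FDR 0.0143, edgeR). The shallower Pld6 KO library held the larger Reg2 count, and the level was 6.18 ± 4.62 CPM (SD, n = 2), against 36.3 ± 7.55 CPM in Dnmt3l KO. Pamr1, a secreted protein with a peptidase-like domain, had 31 and 60 counts in Pld6 KO, and Il23r, a receptor subunit for interleukin-23, had 29 and 69. Their levels were at least 36.6-fold and at least 39.4-fold above WT (FDR 0.00658 and 0.0143, edgeR). The other genes absent from the WT counts were Tacr3, the neurokinin B receptor of neurons (29 and 62 counts), the membrane serine protease gene Tmprss11f (17 and 66) and Lrp1b, a large receptor of the low-density lipoprotein receptor family (11 and 68). They were at least 36.6-fold, at least 33.3-fold and at least 31.7-fold above WT (FDR 0.0275, 0.0294 and 0.0346, edgeR). All of these had counts in both Pld6 KO libraries, although the Lrp1b level differed more than 3-fold between them, at 1.60 and 5.36 CPM. Tacr3 counts in Dnmt3l KO were 6 and 4, fewer than in either Pld6 KO library, and the difference between the mutants was not called (FDR 0.147, edgeR).

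A second group of genes was near 0 in WT but not absent. Robo2, a receptor for SLIT proteins in axon guidance, counted 6 and 1 in WT against 153 and 287 in Pld6 KO. The level rose from 0.297 ± 0.299 to 22.4 ± 0.274 CPM (SD, n = 2), a rise of 6.18 ± 0.58 (SE) on the log2 scale (FDR 0.00129, edgeR). Pkhd1, which encodes the ciliary membrane protein fibrocystin, counted 5 and 0 in WT against 138 and 262 in Pld6 KO (log2 fold change 6.51 ± 0.61, FDR 0.00129, edgeR). Its relative Pkhd1l1, on another chromosome, counted 9 and 2 in WT against 75 and 157 in Pld6 KO (4.61 ± 0.62 on the log2 scale, FDR 0.0143, edgeR). In all 3 genes the higher of the WT values was in WT 1. Clca4, which could not be placed in the annotation and is known here by its symbol alone, counted 0 and 1 in WT against 58 and 104 in Pld6 KO. With so few WT counts its ratio was 195 with a 95% counting interval from 34.5 to 7758 (FDR 0.00154, edgeR). Afm, a plasma carrier of the albumin family, counted 1 and 0 in WT against 35 and 75 in Pld6 KO, a ratio of 133 with an interval from 23.3 to 5283 (FDR 0.0143, edgeR). Epha5, a receptor for ephrins on axons, had 1 and 2 against 23 and 84, a ratio of 43.0 with an interval from 14.3 to 212 (FDR 0.0269, edgeR). These intervals cover counting error alone.

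Genes of cilia, ion channels and the cytoskeleton were found in the same range or slightly above it. Dnah6, a heavy chain of the axonemal inner dynein arm, counted 10 and 9 in WT against 87 and 160 in Pld6 KO, where the level was 12.6 ± 0.0221 CPM (SD, n = 2) against 0.806 ± 0.0579 CPM. Tmc2, a mechanotransduction channel subunit of hair cells, counted 2 and 4 in WT against 54 and 77 in Pld6 KO. Caps2, a calcium-binding protein, had 7 and 5 against 46 and 144. The log2 fold changes were 3.95 ± 0.51 for Dnah6, 4.70 ± 0.60 for Tmc2 and 4.13 ± 0.52 for Caps2 (SE, each with an FDR of 0.011, edgeR). Nalcn, the sodium leak channel, counted 18 and 6 in WT against 69 and 129 in Pld6 KO (3.30 ± 0.53 on the log2 scale, FDR 0.0319, edgeR). Nav3, a microtubule-associated protein of neurons, had 6 and 5 against 42 and 69, while Dnmt3l KO held 6 and 8. The log2 fold changes of Nav3 in Pld6 KO were 3.59 ± 0.61 against WT (FDR 0.0441) and 2.81 against Dnmt3l KO (FDR 0.107, not called, edgeR). Sncaip, a synuclein-binding protein, counted 12 and 17 in WT against 71 and 161 in Pld6 KO. The muscle protein gene Ky counted 12 and 7 against 42 and 87, and Alox5, which makes leukotrienes in white blood cells, 13 and 7 against 51 and 84. These 3 rose by 3.22, 2.99 and 3.03 on the log2 scale (FDR 0.0143, 0.0294 and 0.0327, edgeR).

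A further group was already expressed in WT L/Z cells and rose less. Ccnb3, an X-linked cyclin made in early meiotic prophase, counted 916 and 1058 in WT against 1776 and 5787 in Pld6 KO. Its level went from 83.8 ± 8.74 to 357 ± 140 CPM (SD, n = 2), a rise of 2.09 ± 0.30 (SE) on the log2 scale (FDR 0.0181, edgeR). Both Dnmt3l KO libraries held still more, at 718 ± 152 CPM. They also held more of the 12 prophase genes summed above, and the part of this in Ccnb3 was not tested. The Pld6 KO replicates differed in the size of the rise, which was larger in the library poor in Rn45s. Sfi1, a centrin-binding protein, counted 511 and 381 in WT against 998 and 2571 in Pld6 KO (2.20 ± 0.33 on the log2 scale, FDR 0.0269, edgeR). In the annotation it overlaps Eif4enif1 and the pseudogene Pisd-ps1, neither of which was called, with fitted log2 fold changes of 0.38 and -0.67. The authors' program shares fragments among overlapping genes, so Sfi1 is less certain than the rest. Fbxo47, an F-box protein needed in meiotic prophase, counted 294 and 390 in WT against 495 and 1118 in Pld6 KO. Stxbp5l, a syntaxin-binding protein of nerve terminals, had 304 and 358 against 541 and 1204. Aff4, a scaffold of the super elongation complex of transcription, had 1138 and 1320 against 1692 and 3775. Their fold changes were close to each other, at 1.46 ± 0.23, 1.63 ± 0.23 and 1.38 ± 0.24 on the log2 scale (SE, FDR 0.0294, 0.0143 and 0.0459, edgeR). Nckap1l, a WAVE complex subunit of blood cells, counted 55 and 27 in WT against 162 and 212 in Pld6 KO (2.52 ± 0.41 on the log2 scale, FDR 0.0319, edgeR). Of 18 blood and macrophage markers 13 were tested and 0 called (edgeR and DESeq2), 2 were higher at an unadjusted p under 0.05, and Hba-a2 was at 0. They summed to 53.2 and 24.4 CPM in WT and 66.4 and 26.5 CPM in Pld6 KO, and their part in the Nckap1l and Alox5 values was not tested.

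**Figure D2:**
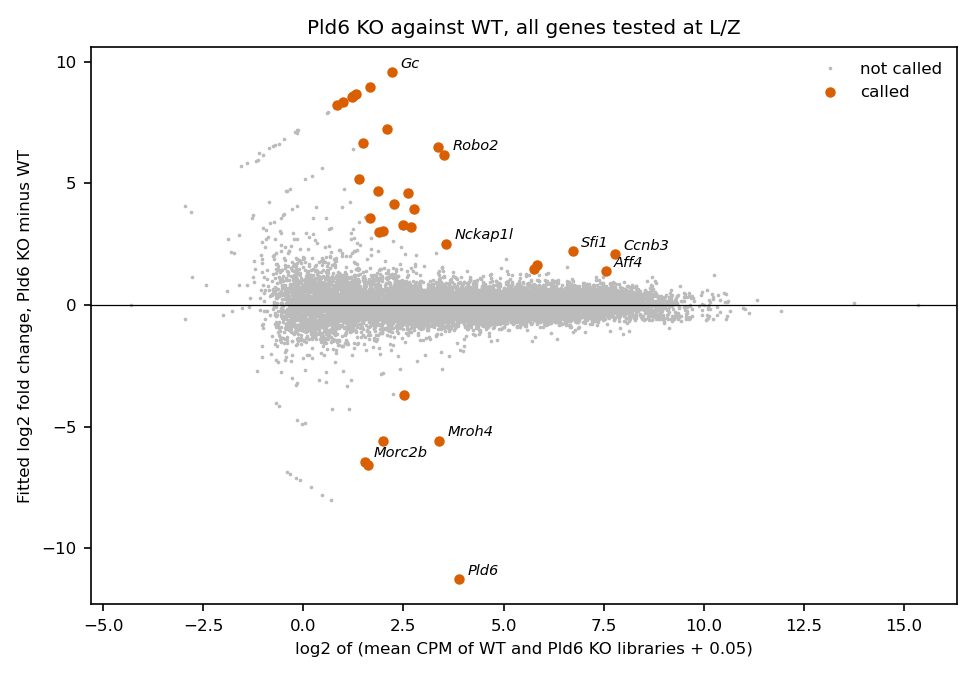
Fitted log2 fold change of Pld6 KO minus WT (vertical axis) against the log2 mean level of the 4 libraries (horizontal axis) for the 14662 genes tested, with the 33 called genes in colour. Called genes with large fold changes sit at low levels, while Ccnb3, Sfi1 and Aff4 stand above the cloud at high levels with fold changes of 1.38 to 2.20.

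Apart from Pld6, 5 genes fell. Mroh4, of the maestro heat-like repeat family, counted 152 and 332 in WT against 4 and 4 in Pld6 KO, or -5.58 ± 0.59 (SE) on the log2 scale (FDR 0.00291, edgeR). Morc2b, a MORC-family ATPase made in meiotic germ cells, counted 50 and 83 in WT against 1 and 0 in Pld6 KO. Zmynd10, an assembly factor for axonemal dynein arms, had 52 and 130 against 0 and 3. All 3 were higher in WT 2 than in WT 1 and at or near 0 in each Pld6 KO library. The ratios of WT over Pld6 KO were 110 for Morc2b, with a 95% counting interval from 19.5 to 4392, and 50.3 for Zmynd10, with an interval from 17.0 to 246 (FDR 0.0275 and 0.0269, edgeR). The testis-expressed genes 1700006A11Rik (55 and 87 counts in WT, 0 and 1 in Pld6 KO) and 1700008K24Rik, a long noncoding RNA (68 and 179 in WT, 7 and 8 in Pld6 KO), made up the rest. The first had a ratio of 118 with an interval from 20.8 to 4687 (FDR 0.0208, edgeR), and the second changed by -3.71 ± 0.60 on the log2 scale (FDR 0.0328, edgeR). In Dnmt3l KO the 5 genes held between 0 and 31 counts. At P0 they had at most 3 counts in each WT and 8 in each Pld6 KO library.

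The pachytene stage follows zygotene, and Pld6 KO germ cells die before it. Of 30 genes that switch on around its onset, 25 were tested and 0 were called by edgeR, while 3 lay above 0 and the median log2 fold change was -0.66, against 0.0042 over all genes tested. At an unadjusted p under 0.05, 8 of them were lower and 1 was higher in Pld6 KO. The shares of all tested genes past that p are 3.55% lower and 5.62% higher. The members of the highest level were Tex101, a sperm-surface protein, at 736 ± 432 CPM in WT and 380 ± 4.99 CPM in Pld6 KO (SD, n = 2), and the germ cell heat shock protein Hspa2, at 185 ± 128 and 117 ± 14.98 CPM. Their WT libraries differed by more than the genotypes did. Named after their values were seen, Ldhc, the germ cell lactate dehydrogenase, counted 193 and 402 in WT against 15 and 139 in Pld6 KO, and Meig1, needed to build the sperm tail, counted 125 and 355 against 17 and 84. Adam2, a sperm surface protein, counted 57 and 225 against 8 and 44. In each, both Pld6 KO counts lay below that of WT 2, and the adjusted p-values were 0.245 to 0.367 (edgeR). The member that was higher was Mybl1, the transcription factor that drives pachytene genes, with 439 and 714 WT counts against 770 and 2190, or 48.9 ± 16.6 and 142 ± 43.0 CPM (SD, n = 2, FDR 0.0886, not called, edgeR). DESeq2 called Mybl1 higher and Meig1 lower. So did edgeR without the libraries rich in Rn45s, where Adam2 was also called lower, but this setting leaves 1 WT and 1 Pld6 KO library and takes its spread from the 2 Dnmt3l KO libraries alone.

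The pachytene list summed to 1006 CPM in WT 1, 2247 in WT 2, 964 in Pld6 KO 1, and 1162 in Pld6 KO 2, while the Dnmt3l KO libraries reached 2883 and 2088. WT 2 alone among the WT and Pld6 KO libraries stood high, and the median log2 ratio was -0.41 within the pair rich in Rn45s and -0.79 within the other. In such bulk samples fewer cells of a stage and less RNA per cell cannot be told apart. Its part in the 5 falls above was not tested.

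Genes of earlier and of the same stage had medians nearer to 0. Of 43 tested genes of meiotic prophase, 0 were called by edgeR and 1 by DESeq2 (Gm1564, higher), 5 were higher and 2 lower at an unadjusted p under 0.05, and the median was 0.13. Sycp1, which joins paired chromosomes in the synaptonemal complex, was at 695 ± 196 CPM in WT and 895 ± 338 CPM in Pld6 KO (SD, n = 2), and the cohesin subunit Stag3 at 572 ± 137 and 602 ± 38.8 CPM. Both differed by less than the larger replicate spread. Of 26 genes of spermatogonia, 0 were called (edgeR and DESeq2), 2 were higher and 2 lower at that p, and the median was -0.03. The ubiquitin hydrolase Uchl1 was at 577 ± 13.2 CPM in WT and 417 ± 68.0 CPM in Pld6 KO, and the transcription factor Dmrt1 at 540 ± 14.8 and 417 ± 37.6 CPM (SD, n = 2, FDR 0.671 and 0.736, edgeR). Spermatid genes were sparse. Of 25, 8 were tested, 0 were called (edgeR and DESeq2), 1 was higher at that p, and Prm2, Prm3, Catsper1, Smcp and H1fnt had 0 counts in the WT and Pld6 KO libraries.

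Markers of somatic cells of the testis were present in every library and were higher in the libraries rich in Rn45s. The peritubular and endothelial list summed to 529 and 145 CPM in WT 1 and WT 2 and to 359 and 121 CPM in Pld6 KO 1 and Pld6 KO 2, with Col1a1 and Acta2 at the highest levels. The Sertoli list summed to 1101, 833, 1006 and 740 CPM in the same order. Of its 19 tested genes, and of the 15 peritubular and endothelial ones, 0 were called (edgeR and DESeq2) and 0 passed an unadjusted p of 0.05, with medians of -0.12 and -0.36. Of 5 tested Leydig genes 0 were called (edgeR and DESeq2), 1 was lower at that p, and the median was -0.37. Without the libraries rich in Rn45s the steroid synthesis gene Cyp11a1 was called lower.

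**Figure D3:**
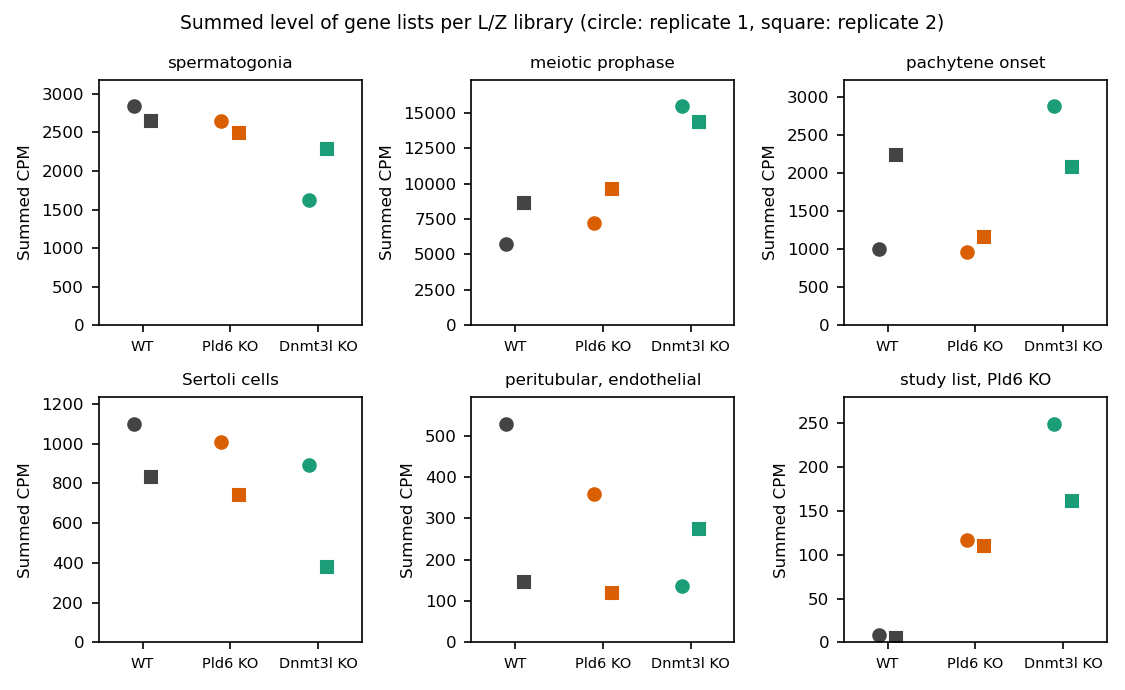
Summed CPM of 6 gene lists in each L/Z library (circle, replicate 1; square, replicate 2; each axis starts at 0). The pachytene onset list reached 2247 CPM in WT 2 against 964 to 1162 in Pld6 KO and 1006 in WT 1, while the study's Pld6 list lay at 5.27 and 8.89 CPM in WT and at 110 and 117 CPM in Pld6 KO.

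The study listed genes whose higher expression in Pld6 KO spermatocytes came with an activated retrotransposon nearby. It chose them on these same libraries, so the direction of the list is not independent evidence. Of the 13 genes all were tested, 11 were called higher and the median log2 fold change was 6.18. The called members were Gc, Robo2, Pamr1, Caps2, Tmc2, Afm, Reg2, Il23r, Sncaip, Nckap1l and Alox5. The other members were Sntb1, a syntrophin of the membrane skeleton, with 9 and 1 counts in WT and 36 and 53 in Pld6 KO (3.43 ± 0.69 on the log2 scale, FDR 0.0968, edgeR), and the leukocyte receptor gene Cd300c, with 0 and 0 against 7 and 28 (at least 14.1-fold higher, FDR 0.0966, edgeR). Both had more counts in each Pld6 KO library than in either WT library. The list summed to 8.89 and 5.27 CPM in WT and to 117 and 110 CPM in Pld6 KO.

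A longer list was chosen in the same way on the Dnmt3l KO libraries, which were compared with the same WT libraries. Of its 37 genes, 11 were called higher in Pld6 KO, and its median log2 fold change there was 1.37. Of the 26 genes on it that are not on the Pld6 list, 1, Pkhd1, was called, 22 lay above 0 and the median was 1.06. Over all 14662 genes tested, 0.184% were called higher, 7401 lay above 0 and the median was 0.0042. The shared WT libraries tie the direction of this list to its choice, so it is not independent evidence. The study shows Tecrl, a reductase-like gene of heart muscle, downstream of a derepressed LINE1 retrotransposon copy. Tecrl counted 5 and 0 in WT against 25 and 60 in Pld6 KO, with 36 and 66 in the Dnmt3l KO libraries (4.24 ± 0.82 on the log2 scale in Pld6 KO, FDR 0.0834, not called, edgeR). Slc15a2, a peptide transporter, counted 8 and 19 in WT against 28 and 10 in Pld6 KO, so that Pld6 KO 1 was the highest and Pld6 KO 2 lay between the WT counts, and Dnmt3l KO counted 70 and 146. The noncoding RNA 2310043L19Rik was at 0 in both WT and both Pld6 KO libraries, whereas Dnmt3l KO counted 11 and 14.

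Of the 27 higher genes, 15 were on neither list. They included Pkhd1l1, Dnah6, Clca4, Epha5, Tacr3, Tmprss11f, Lrp1b, Nav3, Nalcn and Ky among genes near 0 or low in WT, with Nalcn at 1.02 CPM. Among genes well expressed in WT they included Ccnb3, Sfi1, Fbxo47, Stxbp5l and Aff4. Retrotransposon copies were not analysed here, so no statement is made about elements near these 15 genes.

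The higher genes were long. Their span in the annotation had a median of 82.3 kb (26 placed genes), against 23.4 kb over 14598 placed genes tested, and 12 of 26 (46.2%) exceeded 100 kb, against 13.6%. Lrp1b at 2058 kb, Robo2 at 1555 kb, Nav3 at 774 kb and Pkhd1 at 560 kb were the longest of them. The 5 falls other than Pld6 spanned 1.27 to 30.8 kb. Across 14538 genes, levels relative to the mean of the L/Z libraries also followed transcript length. The rank correlations were -0.05 (WT 1), -0.43 (WT 2), 0.24 (Pld6 KO 1) and 0.27 (Pld6 KO 2). The median transcript length was 4342 bases in the higher genes and 3348 over all genes tested. With an offset for GC content and length, 30 of the 33 genes stayed called. The part of this shift in the spans was not tested. Among the higher genes 19 of 27 (70.4%) had a mean WT level of at most 1 CPM, against 5.80% of genes tested. This share is tied to the filter on low counts, since 20 of the 27 had under 10 counts in a WT library and so entered the test through the mutant libraries.

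Genes beside the called ones had a median change near 0. The nearest tested gene on each side of a gene called higher was read, 50 genes in all that do not overlap it, of which 0 were called by edgeR and 1, Tecrl, by DESeq2. Their median log2 fold change was 0.01 and 25 of 50 lay above 0, while 7 passed an unadjusted p of 0.05, 6 of them higher. Over all 14662 genes tested, 9.17% passed that p and 5.62% passed it as higher (edgeR). No test was made of the neighbours as a set. Within 100 kb there were 22 neighbours with a median of -0.22. Afp, the fetal plasma protein gene 10.04 kb from Afm, counted 217 and 119 in WT against 75 and 112 in Pld6 KO, where Afm was higher (FDR 0.714, edgeR). Robo1, the gene beside Robo2 at a distance of 844 kb, stood at 41.9 ± 10.4 CPM in WT and 67.0 ± 5.57 CPM in Pld6 KO (SD, n = 2, FDR 0.446, edgeR). Ebag9 beside Pkhd1l1, Il17f beside Pkhd1, and Uba6 and Ythdc1 on either side of Tmprss11f were also higher at an unadjusted p under 0.05, as was Tecrl, the nearest tested gene on the lower side of Epha5. Uqcrq, beside Aff4, was lower. Of 12 genes beside the falls, 0 were called (edgeR and DESeq2) and 1, Bai1 beside Mroh4, was lower at that p.

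Of the piRNA pathway 29 genes were tested, Pld6 was the only one called by edgeR, and the median was -0.02. DESeq2 also called Mybl1, higher. At an unadjusted p under 0.05 (edgeR), 1 gene (Mybl1) was higher and 3 were lower, Pld6 included. The RNA helicase gene Ddx4 was at 512 ± 110 CPM in WT and 571 ± 117 CPM in Pld6 KO (SD, n = 2), Tex15, needed for retrotransposon silencing, at 1037 ± 284 and 1023 ± 34.5 CPM, and Mov10l1, the helicase of piRNA precursors, at 491 ± 140 and 408 ± 32.2 CPM. All 3 differed by less than the larger replicate spread. Piwil1, the PIWI protein of pachytene cells, counted 356 and 390 in WT against 85 and 243 in Pld6 KO (unadjusted p 0.00553, FDR 0.326, edgeR). Of 20 tested genes of the phospholipase D family and of mitochondrial fusion and fission, 0 were called (edgeR and DESeq2) and 0 passed an unadjusted p of 0.05, with a median of 0.12. The mitofusin Mfn1 was at 164 ± 59.3 CPM in WT and 176 ± 8.88 CPM in Pld6 KO, and Mfn2 at 129 ± 20.8 and 155 ± 0.0639 CPM (SD, n = 2). Among 29 genes of silencing and chromatin, Morc2b was the only one called (edgeR and DESeq2) and the median was 0.13. At that p 3 were higher and 1, Morc2b, was lower. Dnmt1, the maintenance methyltransferase, stood at 583 ± 35.7 CPM in WT and 601 ± 1.04 CPM in Pld6 KO (SD, n = 2).

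The lists of responses held no called gene. Of 21 interferon response genes, 23 p53 and damage genes and 30 ribosome biogenesis genes, 0 were called (edgeR and DESeq2), and the medians were 0.03, 0.03 and -0.08. At an unadjusted p under 0.05 they had 2 higher, 1 higher and 2 lower, and 1 higher. Ccng1, a cyclin and p53 target, was at 121 ± 8.50 CPM in WT and 67.6 CPM in Pld6 KO (n = 2, FDR 0.393, edgeR).

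On the lists of other tissues a few members were called, while the rest were at 0, low or not called. Of 20 liver genes 9 were tested and 2 called, Gc and Afm, while Apoc3, Fga and Serpina1b had 0 counts in the WT and Pld6 KO libraries. Other liver genes were detected in both genotypes, with 52 and 37 counts of the plasma protein gene Ahsg in WT against 28 and 28 in Pld6 KO (FDR 0.889, edgeR). Of 18 pancreas and gut genes 4 were tested and 2 called, Reg2 and Clca4. Clca4 is on this list by its symbol alone, since it could not be placed in the annotation. Reg1, Reg3g and Cpb1 had 0 counts, while the elastase gene Cela2a counted 92 and 138 in WT against 49 and 58 in Pld6 KO (FDR 0.604, edgeR). Of 18 neuronal genes 12 were tested and 2 called, Robo2 and Epha5, and no gene of this list was at 0. Gc, Afm, Reg2, Clca4, Robo2 and Epha5 had under 10 counts in each WT library and so entered the test through the mutant libraries. Their number among the tested genes of a list is thus tied to the filter. Over all genes tested, 0.184% were called higher. Of 30 axoneme and cilia genes, Dnah6 was called higher and Zmynd10 lower, with a median of -0.16. Without the libraries rich in Rn45s Rsph1, a radial spoke gene of the axoneme, was called lower too.

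**Figure D4:**
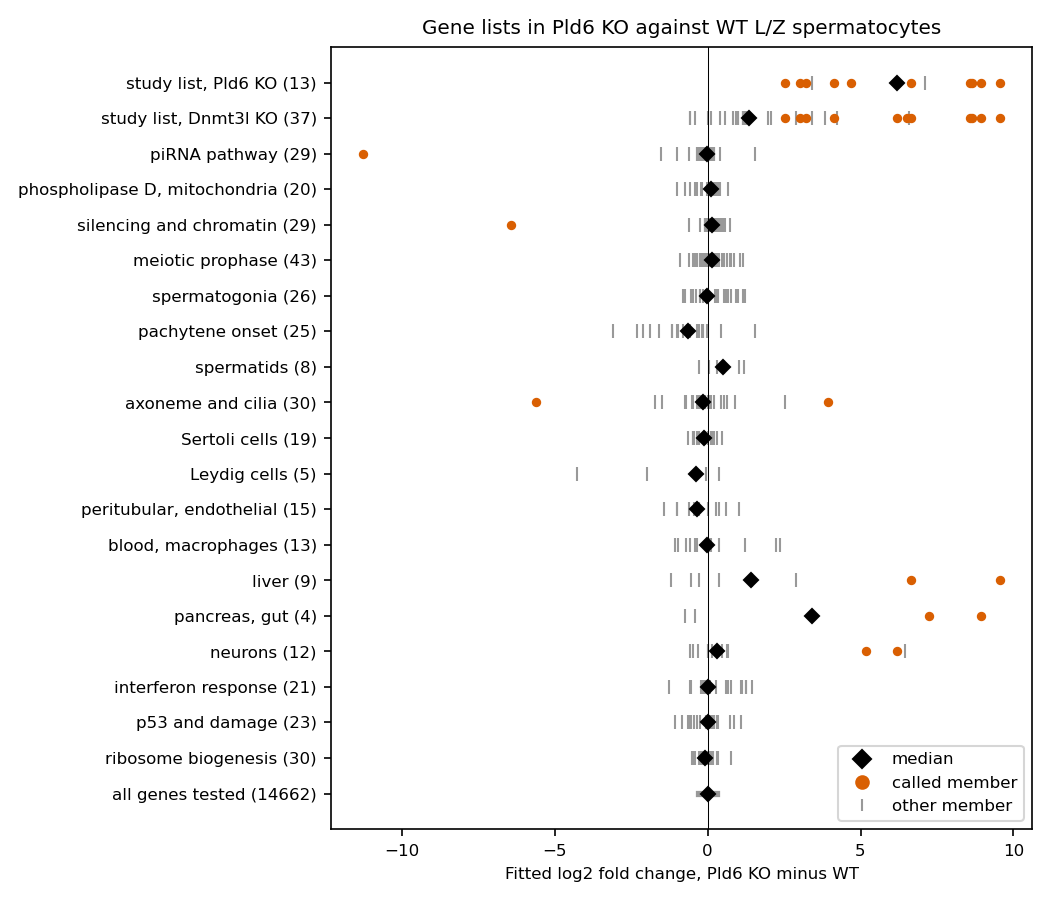
Fitted log2 fold change of Pld6 KO minus WT for the tested members of 20 gene lists (number tested in brackets), with the median as a diamond, called members as dots, and the interquartile range of all genes tested as a bar in the lowest row. The pachytene onset median lies at -0.66, the study's Pld6 list at 6.18, and fitted values of genes at 0 in one group depend on the program's prior count.

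The called genes had the same direction within both pairs of like libraries, which is a description, since they were chosen on these 4 libraries. In the pair rich in Rn45s (Pld6 KO 1 over WT 1) the log2 ratios of the 27 higher genes ran from 1.35 to 7.86 with a median of 3.84, and in the other pair (Pld6 KO 2 over WT 2) from 1.41 to 8.93 with a median of 4.61. The 6 lower genes ran from -8.65 to -2.41 and from -9.57 to -4.51. Over all 14662 genes tested the medians were 0.04 and -0.01, with 5187 genes above 0 in both pairs and 4621 below 0 in both. Pkhd1 differed between pairs, with ratios of 5.43 and 8.93, as did Robo2, with 5.34 and 7.47, while Dnah6 gave 3.84 and 3.97. Without WT 1 and Pld6 KO 1, 122 genes were called (77 higher, 45 lower), the 33 among them. Each genotype then has 1 library, assumed to vary like the 2 Dnmt3l KO libraries that alone give the spread, so this count does not bear on how well the calls repeat. A factor for the libraries rich in Rn45s, fitted on all 6 L/Z libraries, gave 101 calls that also held the 33.

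**Figure D5:**
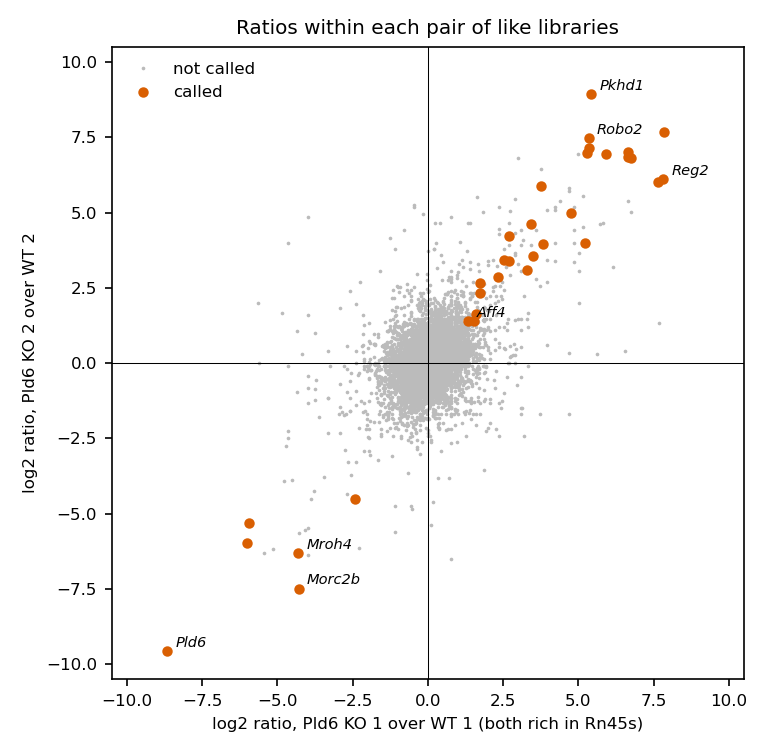
Log2 ratio of Pld6 KO to WT within the pair rich in Rn45s (horizontal axis) and within the other pair (vertical axis) for the 14662 genes tested, computed from counts with 0.5 added. The 27 genes called higher lie at the upper right, the 6 called lower at the lower left.

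Values in Dnmt3l KO are set beside those in Pld6 KO for 6 called genes whose means lay far apart, chosen after their values were seen. Dnmt3l KO was compared with the same 2 WT libraries. Its libraries summed higher over the 12 meiotic prophase genes, at 9564 and 8797 CPM, than any WT or Pld6 KO library. The part of this in the values below was not tested. Ccnb3, Gc and Reg2 had higher means in Dnmt3l KO, at 718 against 357, 27.2 against 9.17 and 36.3 against 6.18 CPM, and Epha5, Nav3 and Tacr3 had higher means in Pld6 KO, at 4.98 against 1.36, 5.77 against 0.886 and 4.55 against 0.743 CPM. None of these 6 differences passed the direct test between the mutants (FDR 0.0932 to 0.181, edgeR). That test called 7 genes of 14662 (0.0477%), and of the 33 genes called against WT it called 1, Pld6. Besides Pld6 they were Anxa3, Apoh, Cdh19, Eps8l1 and Slit2, lower in Pld6 KO, and Myh4, a myosin heavy chain of fast muscle, with 39 and 63 counts in Pld6 KO against 0 and 1 in Dnmt3l KO and 7 and 3 in WT.

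P0 testes of other animals with the same mutation were read for the same genes. They hold somatic cells and prospermatogonia in place of spermatocytes. There 1 of 15901 genes was called (0.00629%), the transcript 4930470H14Rik, with 182 and 189 counts in WT and 1192, 2241, 2362 and 3002 in Pld6 KO. It was not called when either P0 WT library was left out. Pld6 itself counted 57 and 40 in the P0 WT libraries and 2, 0, 1 and 2 in Pld6 KO. The deleted gene was not called (log2 fold change -5.11 ± 0.70, SE, FDR 0.0585, edgeR), so the count of P0 calls can miss large changes. Of the 27 genes higher at L/Z, 22 were tested at P0 and 14 lay above 0. At an unadjusted p under 0.05, 6 were higher and 1 was lower, where 3.14% and 1.92% of all genes tested were. Tmc2 had 2 and 3 counts in the P0 WT libraries and 9, 103, 62 and 102 in Pld6 KO (4.79 ± 0.98 on the log2 scale, unadjusted p 0.000263, FDR 0.522, edgeR). Pkhd1l1 had 21 and 31 against 55, 100, 77 and 144 (1.92 ± 0.51, unadjusted p 0.00205, FDR 0.963, edgeR). Clca4, Caps2, Alox5 and Pamr1 were the other 4, and Epha5, with 80 and 69 counts against 55, 34, 34 and 25, was the lower one. Robo2 and Sncaip, near 0 or low in WT spermatocytes, were well expressed in newborn testes of both genotypes, at 99.4 ± 11.9 (SD, n = 2) and 93.2 ± 21.0 CPM (SD, n = 4) for Robo2 in WT and Pld6 KO. Gc, Afm, Reg2 and Il23r held at most 11 counts in any of these 6 libraries and did not pass the filter.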

How the data were processed

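Counts and FPKM came from the table of the L/Z libraries and that of the P0 libraries. Per the labels and methods, the authors aligned reads of a stranded polyA(+) kit with TopHat to mm10 and quantified RefSeq genes with Cuffdiff, versions not given in the sources used here. The deposited estimated counts (97.8% and 97.7% whole) were rounded. The authors' FPKM, scaled by transcript length and library size, were used only in alternatives. Replicates 0 and 1 of the table were taken as 1 and 2 of the labels. Genes without an OK status (6 at L/Z, 2 at P0) were left out.

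Counts of all 6 L/Z libraries (or 11 P0 libraries) were fitted together by group in R 4.3.3 with edgeR 4.0.16 (filterByExpr, TMM, glmQLFit, glmQLFTest). Genes were called at a Benjamini-Hochberg FDR under 0.05 and a fold change over 2. SE is the log2 fold change over the square root of F. Groups at 0 were given 3 counts over their libraries, and ratios with 1 to 3 counts an exact (Clopper-Pearson) 95% interval. PCR copies are not independent molecules, so both cover counting error only. Ratios within pairs used 0.5 added counts. With 2 libraries a group, p-values measure only the spread between these libraries.

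Named genes were Pld6, Dnmt3l, all called genes, the study's Pld6 list, 3 genes of its text, Rn45s and, per list, called members or up to 4 of the highest level. Others, such as Lars2, Mir6236, Afp, Ahsg, Cela2a, Cyp11a1, Eif4enif1, Pisd-ps1, Gm1564, Ldhc, Meig1, Adam2, Mybl1, Piwil1, the axoneme gene Rsph1 and the genes called between mutants or at P0, were chosen after their values were seen. The libraries, genes and 20 lists were chosen with earlier results of these data known. List symbols were matched through RefSeq GRCm38.p6, which placed 23818 of 23974 genes and gave the promoter windows. The fit was tested on simulated data. Alternatives used limma 3.58.1, DESeq2 1.42.0 and an offset for GC content and length (loess, span 0.3). Other steps used Python 3.11.15, pandas 2.3.3, numpy 2.4.6, scipy 1.17.1 and matplotlib 3.10.9.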

Additional observations from a re-analysis of the deposited data

Results flagged for a closer look

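Across the 4 P0 Pld6 KO libraries 22 named genes averaged 10 counts or more, and 2 of them had a library far from the others by Dixon's test, where chance flags about 1 in 20 groups. Pamr1 reached 29.6 CPM in the highest of these libraries, a gap to the next of 0.913 of the range. Fbxo47 was at 0.908 CPM in the lowest, with a gap of 0.845 of the range.

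Epha5 and Aff4 moved in opposite directions in the 2 tissues, with every Pld6 KO library above WT at L/Z and below WT at P0. The log2 fold changes of Epha5 were 5.18 at L/Z and -0.99 at P0, and those of Aff4 were 1.38 and -0.28. The difference between the stages was not tested.

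The 5 genes that fell beside Pld6 were abundant in 1 P0 library outside the comparison, the library labelled Dnmt3l KO replicate 1. It held 91 counts of Mroh4, 111 of 1700006A11Rik, 73 of Zmynd10, 71 of Morc2b and 180 of 1700008K24Rik. The next highest of the 11 P0 libraries held 2, 2, 8, 7 and 4.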

How the results depend on the processing

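The direction of the 33 calls between Pld6 KO and WT held under every alternative in which each gene was tested, but most calls rest on the shared fit. In place of 33 calls, there were 74 with no filter on low counts, 14 with a mean of at least 50 counts, 90 by DESeq2's Wald test, 1 with only the compared groups fitted, 11 and 15 by limma on log2(FPKM + 1) and log2(FPKM + 0.1), 101 with a factor for the libraries rich in Rn45s and 122 without them, the last with 1 library in each of the compared groups. The limma calls held 2 and 6 of the 33 genes. Leaving out 1 library gave 7 to 74. For Dnmt3l KO against WT (802 calls) limma gave 121 and 110, a GC and length offset 265, no rich libraries 482, and leaving out 1 library 1 to 1139. Between the mutants (7 calls) DESeq2 size factors, Rn45s left out, and Rn45s, Lars2 and Mir6236 left out (an alternative chosen after seeing the data) each gave 3, no filter 193, the stricter filter 2, the Wald test 355, only these groups 181, limma 14 and 11, the offset 16, the factor 25, no rich libraries 100, and leaving out 1 library 0 to 215. At P0 (1 call) no filter gave 4, the Wald test 14, only these groups 4, limma with 0.1 gave 3, and leaving out 1 library 1 to 4. The P0 call, 4930470H14Rik, was not among the 2 and 3 calls made without WT 1 and WT 2. The causes of these shifts were not tested, apart from the fewer samples or genes that some settings hold.

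Replicate numbers were tested as a block. Same-numbered WT and Pld6 KO libraries correlated at 0.485 in their deviations, and WT and Pld6 KO with Dnmt3l KO at -0.144 and -0.135, and the labels do not say that a number marks a litter, batch or day. The numbers were therefore not taken as pairs, although same-numbered WT and Pld6 KO libraries were alike in their Rn45s share. With the replicate block 24 genes were called in Pld6 KO (20 higher, 4 lower), 4 between the mutants and 0 at P0.

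Among named genes with no call, Slc15a2 ran from -0.53 (without Pld6 KO 1) to 1.81 (without Pld6 KO 2) and was -1.01 without the rich libraries. Rn45s was 0.0035 with DESeq2 size factors and 0.0035 by the Wald test, and ran from -4.95 to 3.83 when 1 library was left out, being 0.97 without Pld6 KO 2. Rsph1 ran from -2.28 to 0.43. Counts of 0 and low counts limit the fold changes of genes near 0 in WT, and 2 libraries a group limit all calls.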
